A study of Homo sapiens with 6 samples.

Results

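The ERK feedback genes are transcripts that the kinase ERK induces and whose protein products mostly act back on the pathway, so that their RNA is used as a readout of ERK output. The 10 genes described here (DUSP4, DUSP5, DUSP6, SPRY2, SPRY4, SPRED1, SPRED2, ETV4, ETV5 and PHLDA1) were the rows of the deposited counts table whose names equal these symbols, 10 of 57773 genes in all. RNA was sequenced from SW872, an established human liposarcoma cell line, grown in RPMI medium with fetal bovine serum. The Apatinib group held 3 replicates incubated with 18 μM Apatinib for 24 h, and the control group held 3 replicates whose treatment label says none. The protocol text of the control samples nevertheless also describes the Apatinib treatment, and the groups follow the treatment label and the titles. No vehicle is named for the control. Apatinib is a small-molecule inhibitor of the VEGF receptor KDR (VEGFR2) and, by the study's account, also of c-Kit, Src and Ret. The comparison asked which transcripts differed after the drug. The groups share 1 cell line, so that the results describe that line in culture.

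When a receptor tyrosine kinase is active, RAS, RAF and MEK pass the signal to ERK, which enters the nucleus and activates transcription factors of the ETS family and others. The induced proteins include DUSP phosphatases, which remove phosphate from ERK, and Sprouty and Spred proteins, which act further upstream on the way from receptor to RAF. ETV4 and ETV5 are ETS factors that are themselves induced and carry on the transcriptional response. Genes of this kind are known to fall when ERK activity is blocked and to rise when it is stimulated.

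Total counts lay between 17043314 and 22067558 per sample, and levels are in CPM, that is counts scaled with edgeR's TMM factors to libraries of equal size. A differentially expressed gene (DEG) differed by more than 0.5 on the log2 scale at an FDR under 0.05 in edgeR's quasi-likelihood test, where the FDR is the p value adjusted over the 16290 genes tested. A log2 fold change above 0 means higher with Apatinib. Of the mesenchymal markers, 6 of 6 were at 1 CPM or more in every sample, whereas of the adipocyte markers 2 of 6 (PPARG and LPL) reached this level and CEBPA, FABP4 and ADIPOQ were at 0 in all samples. The amplicon genes MDM2, CDK4 and HMGA2, which mark many liposarcomas, were all above 1 CPM, a level that does not show whether they are amplified here. Of the epithelial markers 0 of 3 reached 1 CPM in every sample. Of the 3 leukocyte markers, CD14 was at 2.29 to 5.17 CPM, CD3E had at most 2 counts and PTPRC was at 0. Of the endothelial markers, KDR had at most 11 counts in a sample, CDH5 at most 56 counts (2.57 CPM), and PECAM1 was not found in the counts table. The summed level of the mesenchymal markers was higher with Apatinib (5913 to 6972 against 4832 to 5058 CPM), as was that of the adipocyte markers (65.4 to 89.4 against 61.4 to 63.0 CPM). The sums of the endothelial markers (1.22 to 1.47 against 2.20 to 2.89 CPM) and of the leukocyte markers (2.29 to 3.84 against 4.33 to 5.17 CPM) were lower. The part of these differences in the results was not tested. Of all pairs of samples, control replicates 1 and 2 were the most alike (mean chi-square per gene 2.27, where sampling noise alone gives about 1), against 18.2 to 44.5 for the other pairs of a group. The highest of these values, 44.5 and 34.3, both involved Apatinib replicate 2, against 18.2 between Apatinib replicates 1 and 3. The calls were therefore also made without Apatinib replicate 2 and with control replicates 1 and 2 summed. Pairs across the groups ran from 26.5 (Apatinib replicate 3 and control replicate 3) to 78.4 (Apatinib replicate 1 and control replicate 2). Some pairs within a group were thus further apart than some across the groups.

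Promoter windows of the 3 members with the widest gap between Apatinib replicates among those found in RefSeq are shown because ERK acts on these genes through ETS factors, whose core DNA letters are GGAA (TTCC on the other strand). Each run is the 250 bases before the annotated transcription start in assembly GRCh38.p14, read 5′ to 3′ on the minus strand, on which all 3 genes lie, with every GGAA or TTCC in capitals. SPRY4 is at chr5:142324248-142324497, DUSP6 at chr12:89352502-89352751 and PHLDA1 at chr12:76031777-76032026.
SPRY4: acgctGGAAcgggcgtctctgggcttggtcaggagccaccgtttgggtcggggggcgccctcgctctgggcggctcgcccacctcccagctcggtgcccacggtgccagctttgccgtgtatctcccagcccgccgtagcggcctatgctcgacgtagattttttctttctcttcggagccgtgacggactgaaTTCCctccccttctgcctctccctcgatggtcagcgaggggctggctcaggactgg
DUSP6: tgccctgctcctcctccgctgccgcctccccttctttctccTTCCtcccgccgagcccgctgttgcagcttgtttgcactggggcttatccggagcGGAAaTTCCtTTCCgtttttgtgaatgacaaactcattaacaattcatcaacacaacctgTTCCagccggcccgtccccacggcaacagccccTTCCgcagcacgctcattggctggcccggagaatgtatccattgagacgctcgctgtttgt
PHLDA1: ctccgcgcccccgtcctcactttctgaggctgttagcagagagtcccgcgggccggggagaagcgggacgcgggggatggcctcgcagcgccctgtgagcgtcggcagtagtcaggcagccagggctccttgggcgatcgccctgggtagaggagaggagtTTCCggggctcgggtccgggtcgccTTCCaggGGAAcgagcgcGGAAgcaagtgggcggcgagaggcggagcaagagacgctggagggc

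The SPRY4, DUSP6 and PHLDA1 windows held 2, 6 and 4 ETS cores, with a GC content of 65.6%, 57.2% and 70.4% (median of all windows 58%). Windows of 6 of the 10 members were searched (9 windows, since some have several starts), and none was found for DUSP5, ETV4 and ETV5. Chromosome 8, on which DUSP4 lies, was left out of the member windows but not of the windows they are set against. Whether DUSP4 has an entry is therefore not shown. GGAA on either strand was in 9 of 9 member windows, but also in 92.7% of 35116 windows of the same length, with a median of 3 matches. The longer form CCGGAA, which contains GGAA, was in 2 of 9 member windows (14.5% of all). GGGCGG, a GC box, was in 4 of 9 (42.6% of all), TGACG, part of a CRE, in 2 of 9 (21.2% of all) and TGANTCA, the AP-1 motif, in 0 of 9 (6.57% of all). Both strands were searched for each motif. A match of letters describes the window and is not a measured binding site.

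None of the 10 genes was a DEG between the Apatinib and the control group, where 11.5% of all genes tested were DEGs. All 10 passed the filter on low counts. The median log2 fold change of the 10 genes was -0.02 (0.00 over all genes tested), with 5 above and 5 below 0. These are bulk samples, in which fewer cells that express a gene and less of its RNA per cell cannot be told apart. DESeq2 also called 0 of the 10, and 1 gene (ETV4) had an unadjusted p value under 0.05 in edgeR, where 30.6% of all genes did. At an FDR under 0.05 with any fold, 0 of the 10 were found against 12.9% of all genes. In 9 of the 10 genes the groups overlapped, and the 3 Apatinib replicates differed from each other by more than the controls did. Apatinib replicate 2 was the highest of the 6 samples in 10 of 10 genes, a position it held in 22.5% of all genes tested. Apatinib replicates 1 and 3 were both below all 3 controls in 7 of the 10 genes (23.1% of all genes), and in the same 7, namely DUSP4, DUSP5, DUSP6, SPRY4, SPRED1, ETV5 and PHLDA1, replicate 2 was above all 3 controls (3.08% of all genes). Replicate 1 was the highest sample in 0 of 10 (24.8% of all genes) and replicate 3 in 0 of 10 (8.51%).

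**Figure D1:**
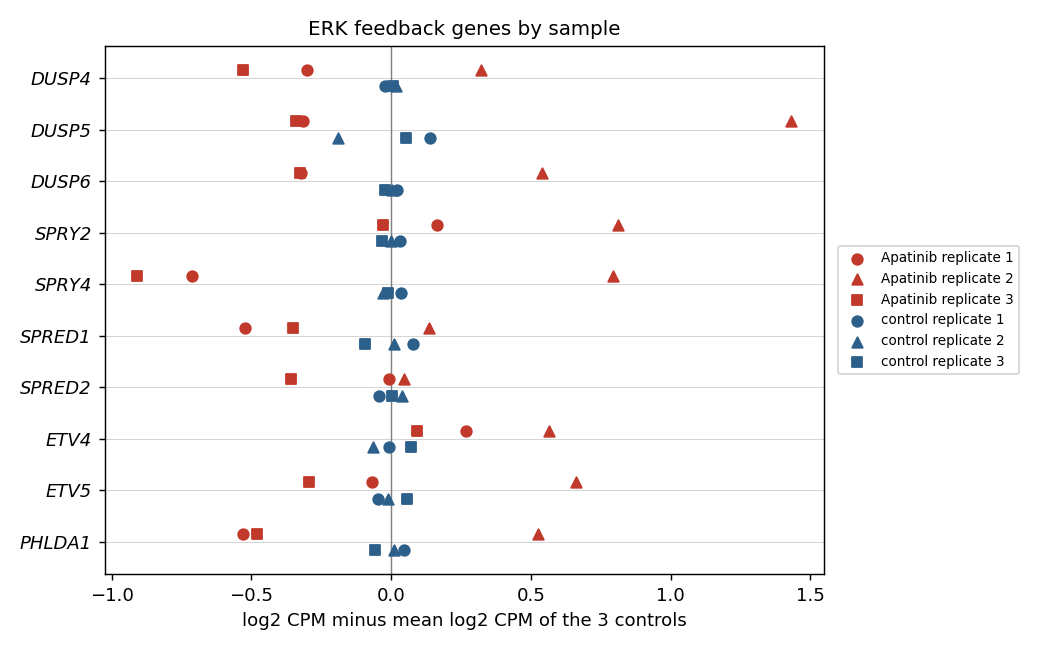
Log2 CPM of the 10 ERK feedback genes in each of the 6 samples, after subtraction of the mean log2 CPM of the 3 controls of that gene (x axis), with red symbols for Apatinib, blue for control and 1 shape per replicate number. Apatinib replicate 2 (red triangles) lies to the right of the other 5 samples in all 10 genes, while the controls of most genes sit close to 0.

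The DUSP phosphatases of the list differ in where they act: DUSP6 is a cytoplasmic phosphatase selective for ERK, DUSP5 is nuclear and selective for ERK, and DUSP4 is nuclear and also acts on other MAP kinases. DUSP6 was measured at 134, 244 and 134 CPM in Apatinib replicates 1 to 3 and at 170, 168 and 165 CPM in control replicates 1 to 3. Replicates 1 and 3 were below every control and replicate 2 above every control. The group means were 171 ± 63.5 and 168 ± 2.43 CPM (SD, n = 3), which gave a log2 fold change of 0.02 (SE 0.205, 95% interval -0.42 to 0.47, edgeR FDR = 0.948). DUSP4 was at 194, 299 and 165 CPM with Apatinib and at 235, 242 and 240 CPM in the control, with the same order of samples around the controls. Its log2 fold change was -0.12 (SE 0.186, 95% interval -0.53 to 0.28, edgeR FDR = 0.695). DUSP5, the least abundant member, was at 6.75, 22.9 and 6.64 CPM against 9.29, 7.37 and 8.75 CPM. Replicate 2 alone was 2.71-fold above the control mean, while replicates 1 and 3 were at 0.797 and 0.784 of it. For DUSP5 the log2 fold change was 0.52 with an interval that covers both directions (95% interval -0.36 to 1.39, edgeR FDR = 0.412).

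Sprouty proteins interfere with the activation of RAS and RAF below receptor tyrosine kinases, and Spred proteins bind RAF and recruit the RAS-inactivating protein NF1. SPRY4 was at 65.3, 186 and 57.1 CPM with Apatinib and at 110, 105 and 106 CPM in the control. Replicates 1 and 3 were thus at 0.609 and 0.532 of the control mean, the lowest ratios among the 10 genes in each of these replicates, and replicate 2 was 1.74-fold above it. The fitted log2 fold change of SPRY4 was -0.06 (SE 0.346, 95% interval -0.82 to 0.70, edgeR FDR = 0.927). SPRY2 took another course, with 69.2, 109 and 60.6 CPM against 63.2, 61.7 and 60.5 CPM. Its replicate 2 was 1.76-fold above the control mean, but its replicate 1 was also above all controls and its replicate 3 lay between them. SPRY2 had a log2 fold change of 0.36 (SE 0.189, 95% interval -0.05 to 0.78, edgeR FDR = 0.219).

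SPRED1 was at 66.5, 105 and 74.8 CPM with Apatinib and at 101, 96.2 and 89.6 CPM in the control, so that replicates 1 and 3 were below and replicate 2 slightly above the controls. The log2 fold change was -0.22 (SE 0.163, 95% interval -0.58 to 0.14, edgeR FDR = 0.393). SPRED2 differed least between the Apatinib replicates, at 64.2, 66.7 and 50.3 CPM against 62.6, 66.3 and 64.8 CPM. Replicates 1 and 2 were within or next to the range of the controls and replicate 3 was below it. The difference was -0.10 on the log2 scale (SE 0.133, 95% interval -0.39 to 0.19, edgeR FDR = 0.665).

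ETV4 was the single member whose groups did not overlap (33.2% of all genes tested did not). It was at 79.6, 98.0 and 70.6 CPM with Apatinib and at 65.8, 63.3 and 69.6 CPM in the control, and the lowest Apatinib replicate was just above the highest control. Its log2 fold change of 0.32 (SE 0.139, 95% interval 0.02 to 0.62) did not pass the adjusted threshold (edgeR FDR = 0.142, unadjusted p = 0.0400). ETV5, its close relative, was at 94.6, 157 and 80.8 CPM against 96.0, 98.3 and 103 CPM. Replicate 1 of ETV5 was only slightly below the controls, replicate 3 was further below and replicate 2 was 1.58-fold above their mean. ETV5 had a log2 fold change of 0.16 (SE 0.205, 95% interval -0.29 to 0.61, edgeR FDR = 0.641).

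PHLDA1, a pleckstrin homology-like protein whose transcript responds quickly to growth factors, was the most abundant member at 491, 1020 and 508 CPM with Apatinib and 732, 713 and 680 CPM in the control. Replicates 1 and 3 were at 0.693 and 0.717 of the control mean and replicate 2 was 1.44-fold above it. The log2 fold change was -0.07 (SE 0.237, 95% interval -0.59 to 0.44, edgeR FDR = 0.867). ETV4 shares exon sequence with DHX8, DUSP6 with AC024909.2, and PHLDA1 with AC011611.3 and AC011611.4, each on the opposite strand, and ETV5 shares some with DGKG on the same strand (GENCODE 29 gene models). Among the DEGs of the lists described further on, KSR1 shares exon sequence with AC015688.4 and PHLDA3 with AC096677.2 on the same strand, and KSR1 with AC015688.6 and CCND1 with LTO1 on the opposite strand. Whether the counting used strand is not stated, so the reads of these genes may not be fully separated.

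Levels can be compared between genes only per length, for which the deposited FPKM values were used. In the control, PHLDA1 was highest at 119 ± 6.02 FPKM (SD, n = 3), followed by DUSP4 at 30.1 ± 0.659 FPKM. ETV4 (27.1 ± 0.666 FPKM) and DUSP6 (27.1 ± 1.33 FPKM) could not be ordered because their control values overlapped. ETV5 (19.8 ± 0.741 FPKM) overlapped SPRY2 (18.5 ± 1.97 FPKM), which in turn overlapped SPRY4 (17.2 ± 0.778 FPKM). Below them came SPRED2 at 11.3 ± 0.0788, SPRED1 at 8.85 ± 0.882 and DUSP5 at 2.31 ± 0.298 FPKM. All 10 were thus detected in untreated SW872 cells. The split of the Apatinib replicates was also seen in FPKM: SPRY4 was at 10.5, 32.5 and 9.09 FPKM and DUSP6 at 21.7, 43.2 and 21.6 FPKM in Apatinib replicates 1 to 3.

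**Figure D2:**
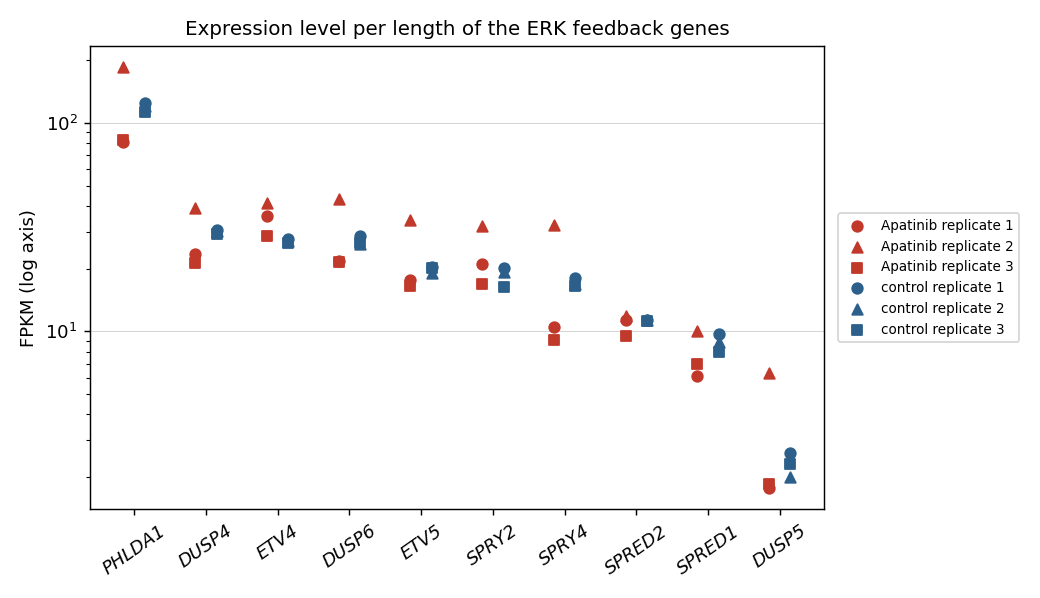
FPKM of the 10 ERK feedback genes in each sample (y axis, log scale), ordered by the control mean, with red symbols for Apatinib, blue for control and 1 shape per replicate number. PHLDA1 stands highest and DUSP5 lowest in both groups, and the Apatinib replicate 2 triangle is above the other symbols of each gene.

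The gap between Apatinib replicate 2 and the other Apatinib replicates was measured as its log2 CPM minus the mean of theirs. It was above 0 in 10 of 10 members, with a median of 0.79 and a range of 0.23 to 1.76, whereas the median over all genes tested was 0.01 with an SD of 0.449 over genes. DUSP5 had the widest gap of the 10 (1.76, 3.42-fold in CPM), higher than that of 99.8% of all genes tested. SPRY4 followed at 1.61 (3.04-fold, above 99.7% of genes), then PHLDA1 at 1.03 (2.04-fold, above 97.9%). DUSP6, ETV5, SPRY2 and DUSP4 had gaps of 0.86, 0.84, 0.75 and 0.74, and SPRED1 had 0.57. The narrowest were those of ETV4 (0.39) and SPRED2 (0.23), which were wider than those of 83.1% and 72.5% of genes.

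Measured in the same way, Apatinib replicate 1 was above the mean of the other Apatinib replicates in 1 of 10 members (median gap -0.33) and Apatinib replicate 3 in 0 of 10 (median gap -0.50). The mean they are set against contains replicate 2, so these gaps largely restate its high values. The controls gave 6, 5 and 5 of 10, with median gaps of 0.04, 0.00 and 0.00. Relative to the control mean, the median of the 10 genes was -0.31, 0.55 and -0.35 on the log2 scale in Apatinib replicates 1, 2 and 3. The coefficient of variation of the 3 controls, of which replicates 1 and 2 were unusually alike, ran from 1.45% in DUSP6 to 11.7% in DUSP5. Apatinib replicate 2 had a depth (17275850 counts) and a share of counts in its 10 most abundant genes (6.33%) inside the range of the other samples. No label sets it apart.

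**Figure D3:**
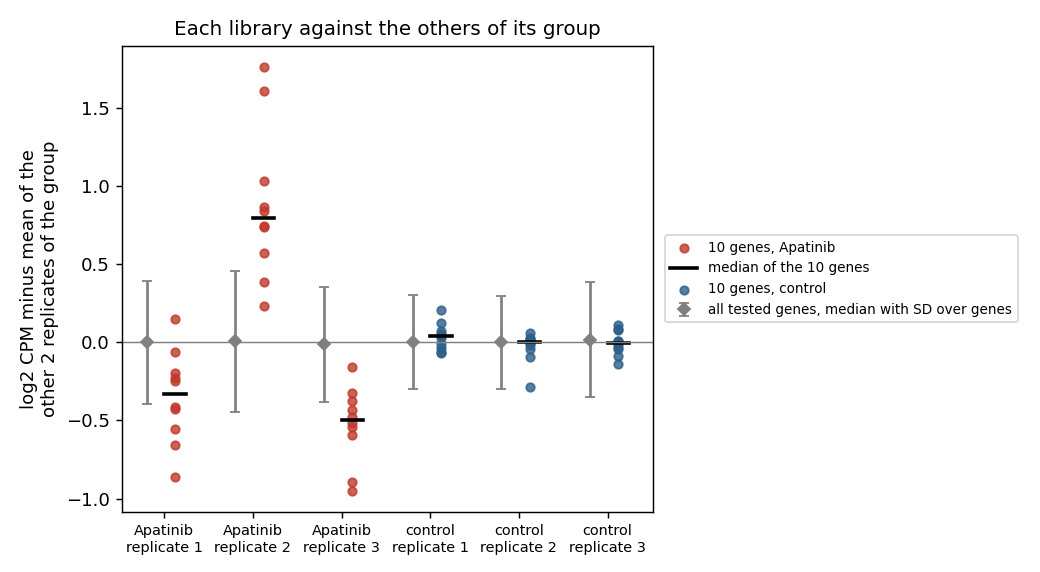
Log2 CPM of each sample minus the mean of the other 2 replicates of its group (y axis), for the 10 ERK feedback genes (coloured points, black bar at their median) and for all tested genes (grey diamond at the median, grey bar for the SD over genes). The 10 points of Apatinib replicate 2 are all above 0, those of Apatinib replicate 3 are all below 0, and those of the controls are spread around 0.

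Leaving out Apatinib replicate 2, 1 of 6 fits that each left out 1 replicate, lowered the log2 fold change of all 10 genes. The median log2 fold change became -0.33 (all genes -0.01), and 1 gene, SPRY4, was a DEG, where 8.91% of 16762 genes tested were DEGs (3.63% lower and 5.28% higher). SPRY4 then fell by 0.80 on the log2 scale (SE 0.115, edgeR FDR = 0.00662). At an FDR under 0.05 with any fold, 3 of the 10 were lower (3.99% of all genes): SPRY4, PHLDA1 (-0.50, edgeR FDR = 0.0194) and DUSP4 (-0.41, edgeR FDR = 0.0469). SPRED1 was at -0.43 (edgeR FDR = 0.0508), DUSP5 at -0.33 (edgeR FDR = 0.218) and DUSP6 at -0.32 (edgeR FDR = 0.0731). ETV4 and SPRY2 stayed above 0, at 0.19 and 0.07, neither past the threshold.

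These calls also depended on how the closely alike control replicates 1 and 2 were counted. With these summed as 1 sample and Apatinib replicate 2 left out, 0 of 10 were DEGs (0.686% of all genes tested), and the edgeR FDR of SPRY4 was 0.0551 at a log2 fold change of -0.81. That of PHLDA1 was 0.112 and that of DUSP4 0.170. With each of the other 5 replicates left out in turn, 0 of the 10 genes were DEGs. Apatinib replicate 2 is left out here because its values stand apart, so the lower levels in the remaining pair are a description of those samples and no independent evidence of a fall.

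**Figure D4:**
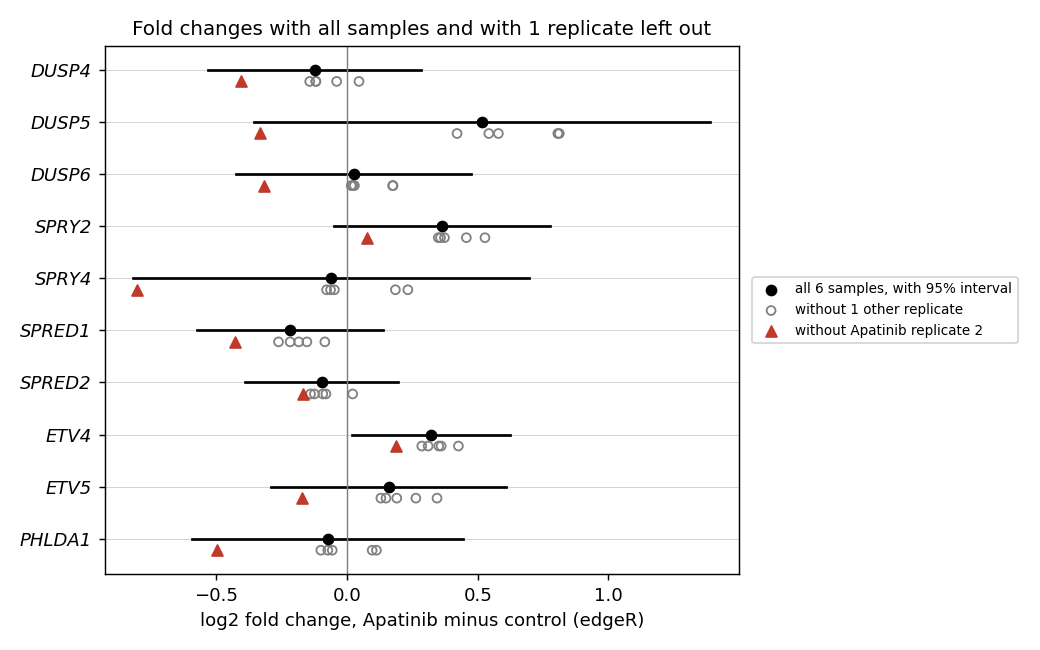
Log2 fold change of Apatinib minus control from edgeR (x axis) for the 10 ERK feedback genes, with all 6 samples (black points, bars for the 95% interval), without Apatinib replicate 2 (red triangles) and without each of the other replicates (open circles). All intervals except that of ETV4 include 0, and the red triangle lies to the left of the other markers in all 10 genes.

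The transcripts with the pattern nearest to that of DUSP6, by the root mean square difference of log2 CPM over the 6 samples after subtraction of each gene's control mean, were RNF125, NUDT4 and ZNF134 (differences of 0.0430, 0.0510 and 0.0526). RNF125, which encodes a ubiquitin ligase, was at 7.04, 12.1 and 6.58 CPM with Apatinib and at 8.14, 8.41 and 8.38 CPM in the control. NUDT4, an enzyme that cleaves diphosphoinositol polyphosphates, was at 54.4, 90.9 and 53.6 CPM against 63.3, 65.0 and 63.9 CPM. ZNF134, a zinc finger gene, was at 20.5, 33.9 and 18.3 CPM against 24.0, 24.4 and 24.0 CPM. Of the members, PHLDA1, ETV5 and DUSP4 ranked 45, 74 and 80 in nearness to DUSP6, and SPRED1 ranked 456. SPRED2, SPRY2 and ETV4, which lack the split around the controls, ranked 1292, 1678 and 3064. SPRY4 and DUSP5, which lay on the same sides of the controls as DUSP6, ranked lower still, at 3300 and 6452, since the measure counts size as well as shape. SPRY4 was further from the controls than DUSP6 in all 3 Apatinib replicates, and DUSP5 mainly in replicate 2, at 1.43 against 0.54 on the log2 scale relative to the control mean.

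Relatives of the 10 genes were examined as a list of 18 other DUSP, SPRY, SPRED, ETS and PHLDA genes, of which 17 could be tested and SPRY3 could not. There were 3 DEGs among the 17, all higher with Apatinib (5.97% of all genes tested were higher DEGs and 5.48% lower DEGs), and the median log2 fold change was 0.15 (0.14 without Apatinib replicate 2). DUSP8, a phosphatase that acts mainly on JNK and p38, was at 5.87, 5.76 and 4.46 CPM with Apatinib and at 2.54, 1.54 and 1.97 CPM in the control. The groups did not overlap, and DUSP8 rose by 1.41 on the log2 scale (SE 0.242, edgeR FDR = 0.00770), a call kept in 6 of 6 fits that left out 1 replicate. The call was lost in limma on FPKM with a pseudocount of 1 (adjusted p = 0.0672) or 0.1 (0.0709), and without Apatinib replicate 2 when controls 1 and 2 were summed (edgeR FDR = 0.0547). ETS2, an ETS factor regulated by ERK, was at 28.0, 37.7 and 22.8 CPM against 19.7, 18.7 and 16.9 CPM (log2 fold change 0.68, edgeR FDR = 0.0332). It was no longer a DEG without Apatinib replicates 1 and 2 and control replicates 1 and 2 in turn (edgeR FDR 0.0632, 0.0591, 0.104 and 0.119). PHLDA3, a p53-induced inhibitor of AKT, was higher by 0.74 on the log2 scale (edgeR FDR = 0.0227) and lost the call without Apatinib replicate 1 (edgeR FDR = 0.0717), control replicate 1 (0.119) or control replicate 2 (0.103). With controls 1 and 2 summed, neither ETS2 (edgeR FDR = 0.110) nor PHLDA3 (0.104) was a DEG, and ETS2 was not a DEG in limma either (adjusted p = 0.0922 and 0.0890). Apatinib replicate 2 was the highest sample in 5 of the 17 (29.4%). Without it, 2 relatives were higher DEGs (DUSP8 and PHLDA3, 11.8% of the list against 5.28% of all genes) and 2 were lower DEGs (SPRY1 and ETV1, 11.8% against 3.63%), and 0 were DEGs with controls 1 and 2 also summed. ETV1, the close relative of ETV4 and ETV5, had a log2 fold change of -0.41 with all samples (edgeR FDR = 0.145) and of -0.64 in the fit without Apatinib replicate 2 (edgeR FDR = 0.0214).

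SPRY1, chosen here after its values were seen because it is the nearest relative of SPRY2 and SPRY4, was at 7.15, 16.7 and 9.22 CPM with Apatinib and at 13.4, 13.4 and 13.9 CPM in the control. It had the same split as SPRY4, and its log2 fold change was -0.30 with all samples (edgeR FDR = 0.465) and -0.72 without Apatinib replicate 2 (edgeR FDR = 0.0289, and 0.107 with controls 1 and 2 also summed). DUSP10, a JNK and p38 phosphatase also chosen after its values were seen, went the other way, with 25.1, 14.2 and 22.6 CPM against 22.6, 21.5 and 25.0 CPM, so that replicate 2 was the lowest of the 6 samples.

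The cascade itself was examined as 25 genes for RAS, RAF, MEK and ERK proteins, their adaptors and their inhibitors, of which 24 could be tested and KSR2 could not. KSR1, a scaffold that holds RAF, MEK and ERK together, was the single DEG (1 of 24, all genes 11.5%). It was at 32.9, 39.9 and 27.3 CPM with Apatinib and at 20.3, 19.3 and 18.8 CPM in the control, without overlap, and rose by 0.78 on the log2 scale (SE 0.155, edgeR FDR = 0.0127). Without Apatinib replicate 2 it was higher by 0.63 (edgeR FDR = 0.0205). The call was lost without control replicate 1 (edgeR FDR = 0.0624) or control replicate 2 (0.0700), with controls 1 and 2 summed (0.0649, or 0.105 with Apatinib replicate 2 left out as well), and in limma on FPKM with a pseudocount of 1 (adjusted p = 0.0625) or 0.1 (0.0623). The next largest differences were those of RASA2, a GTPase-activating protein for RAS, at -0.53 (edgeR FDR = 0.0895), and SHOC2, a scaffold for RAF activation, at -0.52 (edgeR FDR = 0.111). Without Apatinib replicate 2, SHOC2 was at -0.74 (edgeR FDR = 0.0413) and was the 1 lower DEG of the list beside KSR1 as the 1 higher DEG (4.17% each, against 3.63% and 5.28% of all genes), and with controls 1 and 2 also summed 0 were DEGs. The median of the 24 was -0.14 (-0.16 without Apatinib replicate 2). Apatinib replicate 2 was the highest sample in 3 of 24 cascade genes (12.5%), against 10 of 10 feedback genes.

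A list of 20 other transcripts that ERK is known to induce gave 4 DEGs, all higher with Apatinib (20% of the list, against 5.97% of all genes tested that were higher DEGs), and a median log2 fold change of 0.40. FOS, an immediate early AP-1 subunit, was at 14.0, 13.7 and 26.8 CPM with Apatinib and at 1.62, 2.09 and 1.97 CPM in the control, and rose by 3.25 on the log2 scale (edgeR FDR = 0.000315). FOSL1, an AP-1 subunit whose protein is stabilised by ERK, was at 90.2, 104 and 76.1 CPM against 45.8, 54.3 and 50.6 CPM (log2 fold change 0.84, edgeR FDR = 0.00709, and 0.0523 without control replicate 1). CCND1, the cyclin D1 gene, was at 544, 586 and 504 CPM against 338, 357 and 343 CPM (log2 fold change 0.65, edgeR FDR = 0.00847), and lost the call without control replicate 1 (0.0657) or control replicate 2 (0.0542). VGF, a secreted neuropeptide precursor, had 21.1, 21.5 and 13.8 CPM against 8.83, 8.36 and 9.71 CPM (log2 fold change 1.06, edgeR FDR = 0.00853). All 3 Apatinib replicates were above all 3 controls in 7 of the 20 genes (these 4, EPHA2, HBEGF and PLAUR) and in 1 of the 10 feedback genes, against 17.5% of all genes tested. VGF and FOS stayed DEGs in 6 of 6 fits that left out 1 replicate. CCND1 lost the call with controls 1 and 2 summed (edgeR FDR = 0.0590), and with Apatinib replicate 2 also left out so did FOSL1 (0.0703) and VGF (0.0906), while FOS kept it (0.00916).

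EGR1 and TGFA completed the largest differences of that list. EGR1, an immediate early transcription factor, was at 23.0, 178 and 26.2 CPM with Apatinib and at 23.4, 29.1 and 19.8 CPM in the control. Its log2 fold change of 1.65 (edgeR FDR = 0.0978) became 0.04 without Apatinib replicate 2, in which it was 7.22-fold above the mean of replicates 1 and 3. TGFA, a ligand of the EGF receptor, had at most 28 counts in a sample, with 4, 10 and 3 against 14, 12 and 28 (log2 fold change -1.50, edgeR FDR = 0.0708, and -2.16 without Apatinib replicate 2, edgeR FDR = 0.0469). Apatinib replicate 2 was the highest sample in 16 of the 20 genes (80%). The EGF receptor ligand genes HBEGF, AREG and EREG and the cytokine genes LIF and CXCL8, chosen after their values were seen, were 2.40-, 3.63-, 3.17-, 2.98- and 9.86-fold higher in Apatinib replicate 2 than in the mean of replicates 1 and 3. CXCL8, encoding interleukin 8, had 24, 297 and 35 counts with Apatinib and 123, 146 and 106 counts in the control, so that it was on either side of the controls, as SPRY4 was. Without Apatinib replicate 2, the median of the 20 genes was 0.14, with 4 higher DEGs (20% of the list, 5.28% of all genes in that fit). The 3 lower DEGs (15%, and 3.63% of all genes) were TGFA, LIF (-0.64, edgeR FDR = 0.0235) and CXCL8 (-1.95, edgeR FDR = 0.00751). With controls 1 and 2 also summed, 2 of the 20 were DEGs (0.686% of all genes tested).

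**Figure D5:**
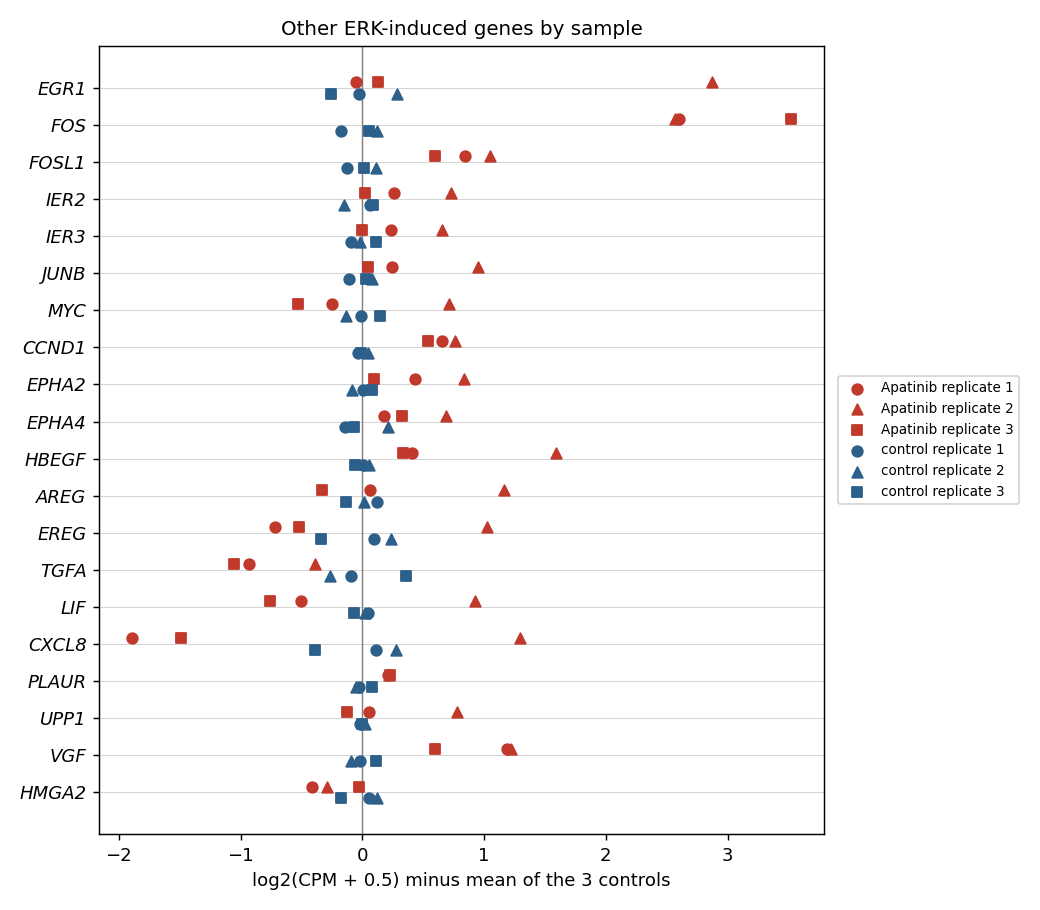
Log2 of CPM plus 0.5 for 20 other ERK-induced transcripts in each sample, after subtraction of the mean of the 3 controls of that gene (x axis), with red symbols for Apatinib, blue for control and 1 shape per replicate number. FOS, FOSL1, CCND1 and VGF have all 3 Apatinib symbols to the right of the controls, whereas EGR1 and CXCL8 have only Apatinib replicate 2 there.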

How the data were processed

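RNA of SW872 cells (3 Apatinib and 3 control replicates, grouped by their labels) was sequenced on an Illumina instrument. The authors deposited whole-number counts of 57773 genes, not normalized, and FPKM values, which relate fragments to transcript length and sequencing depth. The submitters' processing notes list CASAVA, STAR 2.7.1a and the build hg19, without their roles. The counting program, the FPKM program and the annotation are not given in the sources used here. The study describes the replicates as biological, without saying whether cultures were treated separately, so p values measure the spread between these samples. No reads were processed. One column of sample values (1 in all), headed with a control label inside the FPKM values of an Apatinib replicate, was not used.

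Counts were fitted in R 4.3.3 with edgeR 4.0.16 (filterByExpr, TMM, quasi-likelihood F test, no covariate), and p values were adjusted over the 16290 genes tested by the Benjamini-Hochberg method. The criteria of a DEG (FDR under 0.05, log2 fold change above 0.5 in size) are those of the study, which used DESeq2. Log2 CPM used a prior count of 2. The negative binomial model includes counting error, and the biological coefficient of variation was 0.149. Alternatives were DESeq2 1.42.0, RLE size factors, no filter, a minimum of 10 counts per sample, a block for the replicate number, controls 1 and 2 summed, limma 3.58.1 on log2 FPKM values with a pseudocount of 1 or 0.1 for genes with a mean FPKM above 0.5, and each replicate left out. A fit without Apatinib replicate 2 and with controls 1 and 2 summed was chosen after seeing the data. The fitting code was tested on simulated data.

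All 10 members are named, with the DEGs and the 3 largest differences of each of the 3 other lists and the 3 genes nearest to DUSP6. Members and lists were chosen with earlier results of these data known. CXCL8 was found by its Ensembl identifier, under an older symbol. Exon overlaps came from GENCODE 29 and promoters from RefSeq, both on GRCh38 models, so no hg19 positions are given.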

Additional observations from a re-analysis of the deposited data

How the results depend on the processing

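In the 8 alternatives that keep all 6 samples, 0 of the 10 feedback genes were DEGs and their median log2 fold change stayed between -0.07 and 0.00. The widest ranges over these 8 were those of DUSP5 (0.23 to 0.53) and SPRY4 (-0.28 to -0.046). Leaving out each replicate in turn gave 0 to 1 DEGs among them and a median between -0.33 and 0.20. Log2 fold changes over those 6 fits ran from -0.41 to 0.046 (DUSP4), -0.33 to 0.81 (DUSP5), -0.32 to 0.18 (DUSP6), -0.80 to 0.23 (SPRY4), -0.17 to 0.021 (SPRED2), -0.17 to 0.34 (ETV5) and -0.50 to 0.11 (PHLDA1), all of which crossed 0, whereas SPRY2 (0.07 to 0.53), ETV4 (0.19 to 0.43) and SPRED1 (-0.43 to -0.08) did not. Without Apatinib replicate 2 and with controls 1 and 2 summed, the values were -0.35 for DUSP5, -0.32 for DUSP6 and -0.19 for ETV5, each reversed. Replicates share only a number: deviations of the same-numbered samples correlated at -0.259, 0.0808 and -0.220 across genes, and with the replicate number as a block SPRY4 was at -0.28, DUSP5 at 0.27 and DUSP6 at -0.037, and no call among the 10 genes changed. DEGs among the relatives (3) became 1 with controls 1 and 2 summed, 1 and 1 in limma with pseudocounts of 1 and 0.1, 1 to 4 with a replicate left out and 0 in the fit with both changes. DEGs of the cascade (1) became 3 without a filter, 2 with the replicate block, 0 with controls summed, 0 in both limma fits, 0 to 8 with a replicate left out (0 without control 1 or 2, 2 without Apatinib 2, 6 without Apatinib 3 and 8 without control 3) and 0 in the fit with both changes. DEGs of the other induced genes (4) became 7 without a filter, 7 with the replicate block, 2 to 7 with a replicate left out (2 without control 1, 7 without Apatinib 2) and 2 in the fit with both changes. Over all genes the 1866 DEGs became 292 with controls summed, 796 and 810 in limma, 275 to 2594 with a replicate left out and 115 in the fit with both changes. Causes were not tested. With 3 samples against 3, the 95% interval of DUSP5 runs from -0.36 to 1.39 on the log2 scale, the widest of the 10.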

Other observations

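A few further genes were picked after their values were seen, for a wide gap in Apatinib replicate 2 among genes that reached at least 10 CPM. Their high value there is a description of how they were chosen. EGR3, ATF3 and KLF4 reached 10 CPM in that replicate alone, so they met the level too only through it. EGR3, an early growth response factor, was at 1.45, 10.7 and 1.60 CPM with Apatinib and at 1.90, 2.47 and 2.06 CPM in the control. ATF3, a stress-induced transcription factor, was at 5.24, 24.1 and 3.49 CPM against 5.08, 5.94 and 4.72 CPM. KLF4, a zinc finger transcription factor, was at 8.32, 39.7 and 9.62 CPM against 8.31, 6.32 and 3.62 CPM, and none of EGR3, ATF3 and KLF4 was a DEG (edgeR FDR = 0.260, 0.216 and 0.0573). DDIT3, the CHOP gene of the stress response, was at 16.1, 43.4 and 10.7 CPM against 15.3, 13.3 and 12.6 CPM.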
